A study of Mus musculus with 24 samples.

Results

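Chromatin around 10 genes of epithelial cells was examined out of 21631 protein-coding mouse genes: Krt5, Krt14, Epcam, Cdh1, Trp63, Grhl2, Esrp1, Ovol1, Dsg3 and Perp. The genes were picked by name as known epithelial genes. Every ATAC-seq or H3K27ac peak was given to the gene whose span held its midpoint, and otherwise to the nearest protein-coding gene within 1.0 Mb (mm10). All tissue came from wild-type C57BL/6 mouse embryos. The 3 ATAC groups were the whole mandibular process at E12.5 (2 libraries), Meckel's cartilage (MC), the cartilage bar of the embryonic lower jaw, dissected at E14.5 (3 libraries), and cartilage of the E14.5 forelimb (FL, 3 libraries), stripped of connective tissue and digested. H3K27ac, a histone mark of active enhancers and promoters, was mapped in MC and FL at E14.5, with 3 libraries each. The description text of both E12.5 libraries speaks of E14.5 Hi-C of MC, which goes against their titles and protocols of E12.5 ATAC-seq, and the latter were followed. The authors deposited 1 peak list per library and 1 combined list per group. The sources used here do not say whether replicates were separate embryos or pools, so p-values measure only the spread between these libraries.

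Epithelium covers the face and limb and lines the mouth, whereas cartilage forms from the mesenchyme beneath it. Basal epithelial cells are known for the keratin pair Krt5 and Krt14 and for p63 (Trp63), a transcription factor of stratified epithelia. Grhl2 and Ovol1 encode transcription factors that maintain epithelial identity, Esrp1 encodes a splicing regulator of epithelial cells, and Epcam, Cdh1 (E-cadherin), Dsg3 (a desmosomal cadherin) and Perp encode proteins of the cell surface and of cell contacts. The whole E12.5 mandibular process includes surface epithelium by its anatomy, whereas at E14.5 cartilage was dissected. In bulk tissue, fewer open cells of a type and less signal per cell cannot be told apart.

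Peak lists do not give read depth, which is unknown here. The measure was therefore the length of peaks per gene, called cover, in kb, after each list was scaled to the same total over all genes. The E12.5 lists held 74706 and 70042 peaks and the E14.5 lists 43205 to 70636. E12.5 replicate 1 stood apart from all other ATAC lists. It covered 85.58 Mb against 40.67 to 53.03 Mb in the other 7, and its Jaccard overlap (shared bases over the union of bases) was 0.198 with E12.5 replicate 2 and 0.177 to 0.244 with the E14.5 lists. E12.5 replicate 2 overlapped the E14.5 lists at 0.317 to 0.42. The values of the 2 E12.5 lists are therefore given separately beside results from both.

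RefSeq promoter sequences (build GRCm38.p6, the patched mm10) were at hand for 3 of the 10 genes, Krt5, Krt14 and Epcam. The 250 bases before the start are shown for Epcam, which had peaks there in both E12.5 lists, and for Krt5, which had a peak there in E12.5 replicate 1 and combined H3K27ac peaks of both cartilages. Krt5 was added after its values were seen. The table's Krt14 window, chr11:100206031-100206280, lies inside the gene span and under no peak of the 8 ATAC lists, and is not shown. Capitals mark the motifs found on either strand: ACCGGT, a Grainyhead core that reads the same on both strands, and CACCTG, an E-box bound by Zeb and Snail factors, which reads CAGGTG on the other strand.
Epcam, chr17:87635729-87635978, plus strand: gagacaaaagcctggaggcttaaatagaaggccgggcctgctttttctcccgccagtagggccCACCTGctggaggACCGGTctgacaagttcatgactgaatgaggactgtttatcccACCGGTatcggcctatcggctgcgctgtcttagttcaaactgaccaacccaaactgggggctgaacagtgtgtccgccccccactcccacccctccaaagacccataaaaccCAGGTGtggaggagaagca
Krt5, chr15:101712906-101713155, minus strand: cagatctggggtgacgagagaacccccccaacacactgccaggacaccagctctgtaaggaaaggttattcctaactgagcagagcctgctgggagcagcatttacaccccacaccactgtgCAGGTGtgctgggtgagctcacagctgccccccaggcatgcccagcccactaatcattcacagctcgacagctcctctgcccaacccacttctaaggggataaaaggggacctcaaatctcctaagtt

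The Epcam window holds 2 ACCGGT matches and 2 E-boxes, and the Krt5 window holds 1 E-box. Of all 32851 promoter windows of this length in the table, 1.86% hold ACCGGT and 17.2% hold the E-box. The longer Grainyhead form AACCGGTT (0.116% of windows, and always also a match of the shorter form), the AP-2 motif GCCNNNGGC (13.7%) and the Ovol motif CCGTTA (2.18%) were in neither printed window. The Epcam window lay under peaks of E12.5 replicates 1 and 2 and FL replicate 3, and of no MC list. The combined E12.5 and FL lists also had a peak over it, and the combined MC list did not. The Krt5 window lay under a peak of E12.5 replicate 1 and of no other single-library ATAC list.

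Across the 10 genes, the direction of the difference in cover between E12.5 mandible and E14.5 cartilage varied with the member and the E12.5 list. In E12.5 replicate 1, Krt5, Krt14 and Ovol1 stood above all 6 E14.5 lists, or 3 of 10 beside 23.4% of all genes, and Trp63, Grhl2 and Perp stood below all 6, or 3 of 10 beside 47.3%. In E12.5 replicate 2, Krt14 and Esrp1 stood above all 6, or 2 of 10 beside 12.9%, and no member stood below all 6, beside 12.1%. Epcam, Grhl2 and Esrp1 were covered in all 8 lists, Dsg3 chiefly in MC, and Trp63 and Perp most in FL. No difference passed limma at an adjusted p of 0.05. Summed over the 10 genes, scaled cover was 20.1 and 24.3 kb in the E12.5 lists, 18.4 to 19.8 kb in MC and 14.9 to 21.7 kb in FL. Both E12.5 sums were above every MC sum, and they overlapped those of FL. E12.5 replicate 2 and MC replicate 2 had a peak for all 10 genes, beside 74.3% and 69.2% of all genes. The other lists had one for 5 to 8 members, beside 69.1% to 73.4% of all genes.

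**Figure D1:**
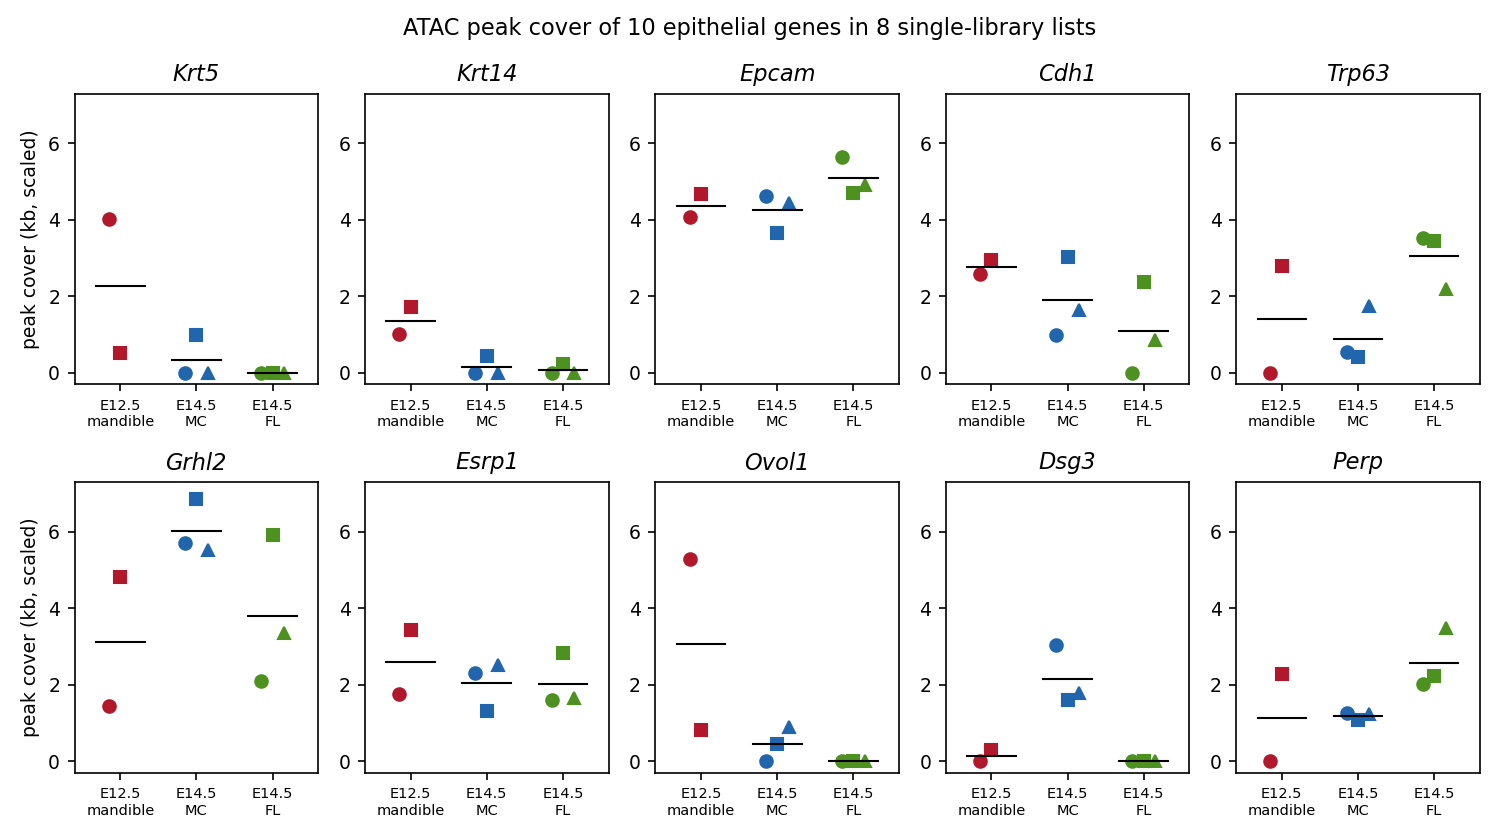
Scaled ATAC peak cover (kb, vertical axis) of each gene in the 8 single-library lists, by group, with circles for replicate 1, squares for replicate 2, triangles for replicate 3 and a black line at the group mean. Krt14 lies at 1.01 and 1.71 kb at E12.5 and at no more than 0.44 kb in any E14.5 list, whereas Dsg3 is covered at 1.59 kb or more in every MC list and lies at 0 in every FL list.

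Among the keratins, Krt14 had a scaled cover of 1.01 and 1.71 kb in E12.5 replicates 1 and 2, of 0, 0.44 and 0 kb in MC replicates 1 to 3, and of 0, 0.22 and 0 kb in those of FL. Both E12.5 lists were above every E14.5 list. The log2 difference of E12.5 against MC was 1.56 ± 0.43 (standard error) and that against FL 1.69 ± 0.43, on the log2(kb + 0.5) scale, which understates changes of low genes. With limma and Benjamini-Hochberg adjustment over 16173 genes these gave adjusted p of 0.712 and 0.397. Krt5, the partner of Krt14, had 4.01 and 0.51 kb at E12.5, 0, 0.98 and 0 kb in MC, and was at 0 in all FL lists. The E12.5 values overlapped MC, since MC replicate 2 lay between them, and did not overlap FL. Its log2 differences were 1.57 ± 0.67 against MC (adjusted p = 0.712, limma) and 2.09 ± 0.67 against FL (adjusted p = 0.397, limma).

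Ovol1, whose product represses mesenchymal genes in epithelia, had 5.29 and 0.82 kb at E12.5, 0, 0.46 and 0.88 kb in MC, and 0 in every FL list. MC replicate 3 exceeded E12.5 replicate 2, so the E12.5 and MC lists overlapped, and E12.5 and FL did not. The log2 difference was 1.66 ± 0.63 against MC and 2.47 ± 0.63 against FL, with adjusted p of 0.712 and 0.397 (limma). In 6 of the 8 lists (both E12.5 lists, MC replicates 2 and 3, and FL replicates 2 and 3) a peak within 1.0 kb of the upper end of Ovol1 had its midpoint inside a neighbouring gene and does not enter this cover. FL values of 0 therefore do not mean that no peak lay at that end. Trp63 had 0 and 2.79 kb in E12.5 replicates 1 and 2, and 0.53, 0.41 and 1.75 kb in the MC lists. Its FL lists held 3.54, 3.44 and 2.19 kb. The 2 E12.5 values bracketed all MC values, and every FL list was above every MC list. Its log2 difference was 0.00 ± 0.73 between E12.5 and MC, -1.45 ± 0.73 between E12.5 and FL, and -1.45 ± 0.65 between MC and FL (adjusted p = 1.0, 0.421 and 0.952, limma). Grhl2 had 1.44 and 4.81 kb in E12.5 replicates 1 and 2, and 5.71, 6.86 and 5.52 kb in the MC lists. Its FL lists held 2.09, 5.91 and 3.36 kb. Both E12.5 lists lay below all MC lists and within or below the FL range. The log2 difference was -1.02 ± 0.52 against MC (adjusted p = 0.712, limma) and -0.32 ± 0.52 against FL (adjusted p = 0.730, limma).

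Epcam, which encodes an adhesion protein of simple and developing epithelia, was the most evenly covered member. It had 4.07 and 4.66 kb in E12.5 replicates 1 and 2, and 4.62, 3.66 and 4.45 kb in the MC lists. Its FL lists held 5.63, 4.70 and 4.91 kb. E12.5 overlapped MC, while every FL list was slightly above both E12.5 and MC. Each list assigned 4 to 8 peaks to Epcam, and only 0 to 2 of them had their midpoint inside the gene. The log2 differences were 0.04 ± 0.34 against MC and -0.20 ± 0.34 against FL, smaller than their standard errors. Cdh1 had 2.58 and 2.95 kb in E12.5 replicates 1 and 2, and 1.00, 3.04 and 1.64 kb in the MC lists. Its FL lists held 0, 2.38 and 0.87 kb. E12.5 was above every FL list and overlapped MC. Its log2 difference was 0.54 ± 0.67 against MC (adjusted p = 0.791, limma) and 1.38 ± 0.67 against FL (adjusted p = 0.414, limma).

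Perp, a target of p63 that encodes a protein needed for desmosomes, had 0 and 2.29 kb in E12.5 replicates 1 and 2, and 1.26, 1.08 and 1.22 kb in the MC lists. Its FL lists held 2.02, 2.24 and 3.48 kb. The E12.5 lists lay on either side of all MC lists, and every FL list was above every MC list. The log2 difference was -0.51 ± 0.63 against MC, -1.35 ± 0.63 against FL, and -0.84 ± 0.56 for MC against FL (adjusted p = 0.784, 0.412 and 1.0, limma). Esrp1 had 1.75 and 3.43 kb in E12.5 replicates 1 and 2, and 2.30, 1.30 and 2.53 kb in the MC lists. Its FL lists held 1.59, 2.84 and 1.65 kb. The 3 groups overlapped, with log2 differences of 0.26 ± 0.43 against MC, 0.27 ± 0.43 against FL, and 0.01 ± 0.39 for MC against FL.

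Dsg3 had its cover in MC. Its scaled cover was 0 and 0.29 kb at E12.5, 3.03, 1.60 and 1.79 kb in MC, and 0 in all FL lists. Every MC list was above every E12.5 and FL list. The log2 difference was -2.03 ± 0.39 for E12.5 against MC (adjusted p = 0.528, limma) and 2.36 ± 0.35 for MC against FL (adjusted p = 0.189, limma). With a pseudocount of 0.1 kb in place of 0.5 kb, Dsg3 was called between MC and FL.

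Over all genes, limma called 0 of 16173 genes (0%) in each of the 3 comparisons, and 0 of the 10 members. At an unadjusted p under 0.05 there were 916 genes for E12.5 against MC, 1995 for E12.5 against FL and 845 for MC against FL, with 4, 3 and 1 members among them. In E12.5 against MC, the lists of 3 members did not overlap, beside 18.4% of all genes. Krt14 was the 1 that was higher, beside 3.93%, and Grhl2 and Dsg3 were lower, beside 2340 of 16173 genes. In E12.5 against FL, 4 members (Krt5, Krt14, Cdh1 and Ovol1) were higher without overlap, beside 9.74% of all genes, and 1 (Epcam) was lower, beside 16.5%. In MC against FL, 1 member (Dsg3) was higher without overlap, beside 9.17%, and 3 (Epcam, Trp63 and Perp) were lower, beside 8.98%. The median log2 difference of the members was 0.15 against MC and 0.30 against FL, beside medians over all genes of -0.24 and -0.25. The comparisons with MC and with FL share the E12.5 lists, and MC and FL are each used in 2 of the 3 comparisons.

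On its own, E12.5 replicate 1 split the members. In limma fits with only that E12.5 list, whose spread was taken from the other groups, Krt5 (log2 difference 2.65 ± 0.62, adjusted p = 0.0322) and Ovol1 (2.73 ± 0.53, adjusted p = 0.0223) were called higher than MC. In the same comparison Grhl2 (-1.74 ± 0.49, adjusted p = 0.0475), Dsg3 (-2.36 ± 0.35, adjusted p = 0.0159) and Perp (-1.75 ± 0.33, adjusted p = 0.0212) were called lower. That is 2 members higher beside 4.31% of all genes, and 3 lower beside 18.5%. Against FL, Krt5 (3.17 ± 0.62, adjusted p = 0.0136), Krt14 (1.41 ± 0.46, adjusted p = 0.0499) and Ovol1 (3.53 ± 0.53, adjusted p = 0.00746) were called higher, and Trp63 (-2.81 ± 0.55, adjusted p = 0.0136) and Perp (-2.59 ± 0.33, adjusted p = 0.00611) lower. All genes called there made up 11.2% higher and 26.7% lower. The median over all genes was -0.55 against MC and -0.60 against FL in this list.

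E12.5 replicate 2 on its own gave no call, for the members or for any gene (0% in either direction against MC and against FL). Krt14 stood highest there, at a log2 difference of 1.84 ± 0.46 against MC (adjusted p = 0.429, limma) and 1.96 ± 0.46 against FL (adjusted p = 0.861, limma). Krt5 was 0.50 ± 0.62 and Ovol1 0.60 ± 0.53 against MC, where replicate 1 had given more than 4-fold differences on this scale. For Trp63 the lists pointed in opposite directions against MC, at -1.36 ± 0.55 in replicate 1 and 1.36 ± 0.55 in replicate 2, and so did those for Perp, at -1.75 ± 0.33 and 0.72 ± 0.33. Krt14 and Cdh1 had positive values against both cartilages in both E12.5 lists, as did Krt5 and Ovol1. Median log2 differences of the members were 0.61 against MC and 0.67 against FL in replicate 2, with all genes at -0.01 and 0.02, and -0.09 and -0.07 in replicate 1.

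**Figure D2:**
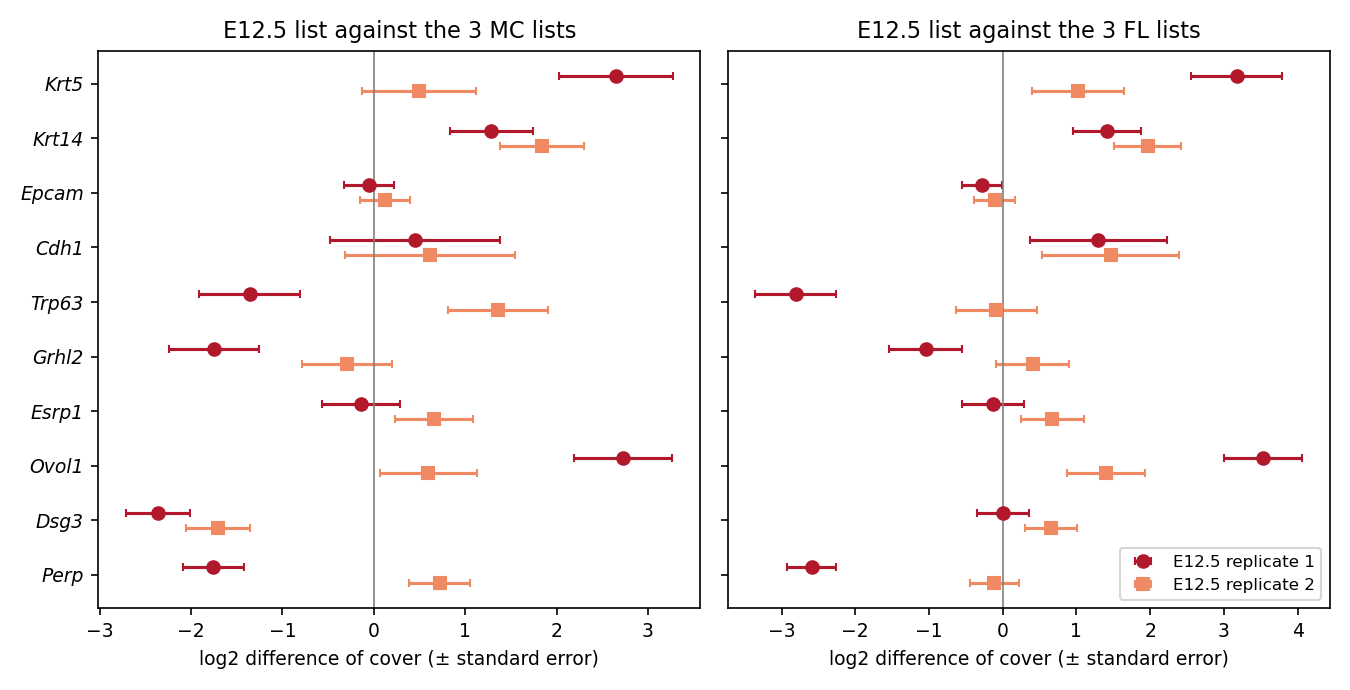
Log2 difference in scaled cover (horizontal axis) of each E12.5 list on its own against the 3 MC lists (left) and the 3 FL lists (right), with bars of 1 standard error from limma. Krt14 lies above 0 in all 4 comparisons, from 1.29 to 1.96, and Trp63 and Perp lie on opposite sides of 0 against MC.

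Cover in E12.5 replicate 1 departed from the other lists by gene density, which was recorded beside the members. Genes were split into 5 bins by neighbours within 500 kb. In the densest bin (31 to 71 neighbours), mean scaled cover was 3.28 kb in E12.5 replicate 1, 1.73 kb in replicate 2 and 1.52 to 2.49 kb in the E14.5 lists. In the most gene-poor bin it was 2.17 kb in replicate 1, 5.51 kb in replicate 2 and 3.92 to 5.56 kb at E14.5. Krt5, Krt14 and Ovol1 are in the densest bin, with 37, 51 and 48 neighbours. Trp63, Grhl2 and Perp are in the poorest bin, with 2, 4 and 5. The members that replicate 1 called higher thus lie in a bin where that list was high over all genes, and 3 of the 4 it called lower (Trp63, Grhl2 and Perp) in the bin where it was low, while Dsg3 is in bin 2. The part of gene density in these differences was not tested.

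**Figure D3:**
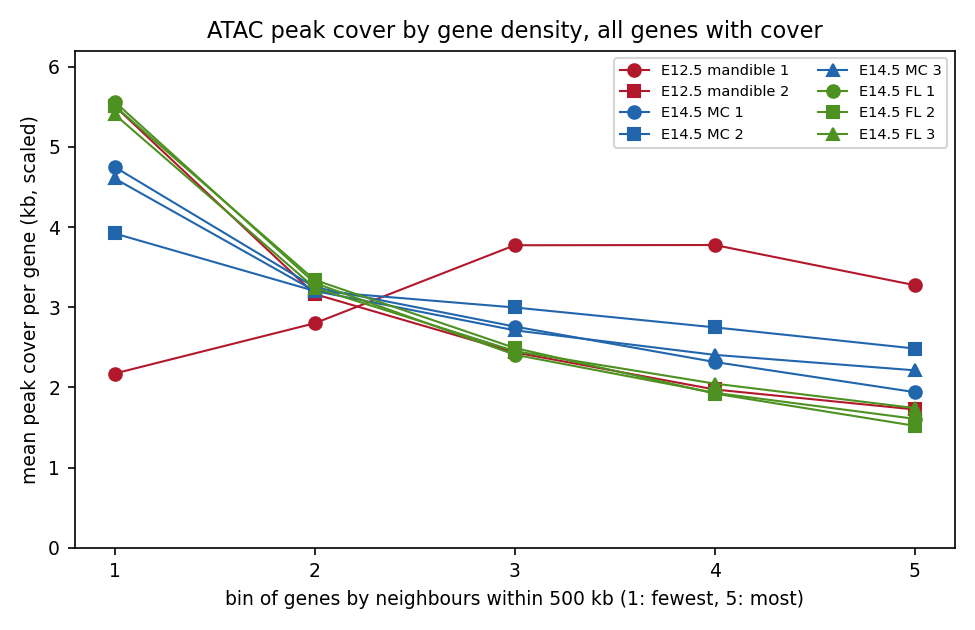
Mean scaled ATAC cover per gene (kb, vertical axis) in 5 bins of genes ordered by the number of neighbouring genes within 500 kb (horizontal axis), 1 line per list. E12.5 replicate 1 runs from 2.17 kb in the gene-poor bin to 3.28 kb in the gene-dense bin, while the other 7 lists fall.

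Markers of other cell types were summed in the same way. Skeletal muscle markers (8 genes) came to 49.5 kb in E12.5 replicate 1, with Myf5 and Actc1 at 0, 15.3 kb in replicate 2, and 9.22 to 16.2 kb at E14.5. Endothelial markers (8 genes) came to 29.8 kb in replicate 1, with Tek and Emcn at 0, 46.0 kb in replicate 2, and 42.6 to 52.5 kb at E14.5. Chondrocyte markers (14 genes, each with a peak in every list) came to 111 and 98.2 kb at E12.5 and 120 to 134 kb at E14.5. Mesenchyme markers (8 genes) came to 35.3 kb in replicate 1, with Postn at 0, 49.8 kb in replicate 2, and 49.5 to 54.3 kb at E14.5. Markers of neurons and Schwann cells (8 genes) spanned 21.3 to 23.2 kb at E12.5 and 11.9 to 23.2 kb at E14.5, and those of blood (8 genes) 16.9 to 29.6 kb and 21.5 to 31.3 kb. Their part in the members' differences was not tested.

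Peaks within 1.0 kb of either end of the gene span were counted next, since the gene table gives no strand. In the E12.5 lists 7 and 8 of the 10 members had such a peak, in MC 4, 7 and 6, and in FL 4, 7 and 5. The share of all genes was 64.9% and 65.0% at E12.5 and 61.1% to 64.8% at E14.5. Grhl2 and Esrp1 had a peak at a gene end in all 8 lists, and Epcam and Perp in 7. Epcam lacked it in FL replicate 1 and Perp in E12.5 replicate 1. Ovol1 had one in 6 lists, Cdh1 in 5 and Krt14 in 4, with both E12.5 lists among them in each case. Trp63 had one in E12.5 replicate 2 and FL replicate 1, Krt5 in E12.5 replicate 1 and Dsg3 in no list. Trp63 is also known to have an internal start, which the ends of the span do not mark.

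Merging the peaks of the 8 lists gave 91 regions for the members among 156824 for all genes. Of the 91 regions, 57 were called in a single list, and the share of such regions over all genes was not computed. Krt5 had 7 regions, all called in E12.5 replicate 1, 1 of them also in E12.5 replicate 2 and 1 in MC replicate 2. Ovol1 had 8, of which 7 were called in E12.5 replicate 1. Trp63 had 15 regions, none of them called in E12.5 replicate 1 and 7 in replicate 2. E12.5 replicate 1 with no E14.5 list held 20 member regions (22.0%, beside 21% of all regions), and E12.5 replicate 2 with no E14.5 list held 14 (15.4%, beside 10.6%).

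**Figure D4:**
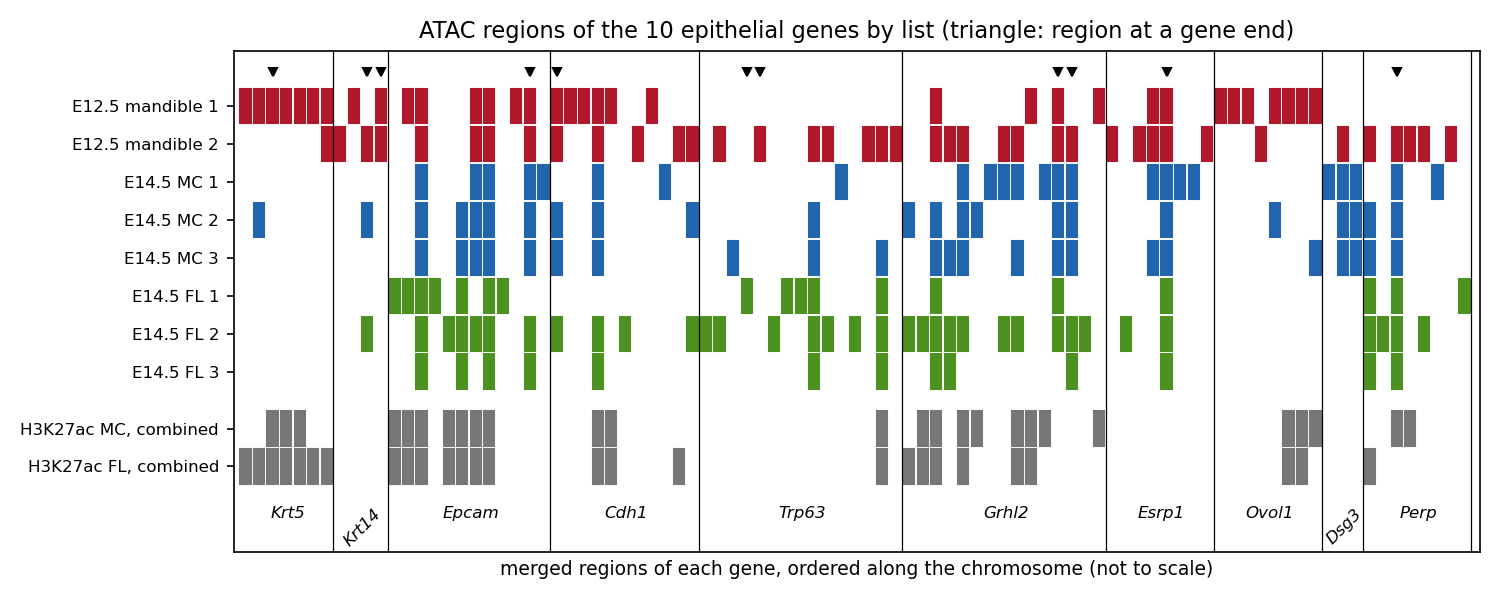
Merged ATAC regions of the 10 genes (columns, in chromosome order within a gene, not to scale) and the lists that called them (rows, coloured by group), with combined H3K27ac peaks in grey and triangles at regions within 1.0 kb of a gene end. All 7 Krt5 regions are filled in E12.5 replicate 1 and no FL list fills any, and 2 of the 3 Dsg3 regions are filled in every MC list and in no FL list.

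Only 2 member regions (2.20%, beside 0.978% of all regions) were called in both E12.5 lists and in no E14.5 list. The first, chr11:100207373-100208903, lies across the upper end of Krt14, and ranked at 42.6% and 65.1% from the top of the 2 lists by the authors' score. The second, chr15:101721942-101722659, lies 9.4 kb beyond the upper end of Krt5, which is the start of this minus-strand gene, and ranked at 90.7% and 66.7%. Both were in the combined E12.5 list and in neither combined E14.5 list. The combined FL list of H3K27ac covered the Krt5 region, and neither combined H3K27ac list covered the Krt14 region.

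Regions called in every list numbered 3 among the members (3.30%, beside 10.1% of all regions). They were chr17:87570485-87571926 and chr17:87611679-87614216, 64.8 and 23.0 kb before Epcam, and chr4:11386309-11388569 at the upper end of Esrp1. Both Epcam regions carried combined H3K27ac peaks in MC and FL, and the Esrp1 region in neither. Another Epcam region, chr17:87635521-87637211 at its start, was called in all lists but FL replicate 1. The start of Perp, chr10:18844431-18845610, was called in all lists but E12.5 replicate 1. The region across the lower end of Grhl2, chr15:37231896-37233411, was called in all but FL replicate 3.

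Regions called in every MC list and in no FL list numbered 2, both assigned to Dsg3 (2.20% of member regions, beside 0.365% of all regions). They lie inside the gene, 3.96 and 28.3 kb from its lower end, and both were in the combined MC list and not in the combined FL list. E12.5 replicate 2 called the first and not the second, and E12.5 replicate 1 neither. Neither carried a combined H3K27ac peak. In MC replicate 2 they ranked at 91.2% and 94.7% from the top of the list, and in MC replicate 1 at 24.7% and 21.1%. No member region was called in every FL list and in no MC list.

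Combined H3K27ac peaks covered 26 of the 91 member regions in MC and 27 in FL, or 28.6% and 29.7%. Over all regions the shares were 55.7% and 55.6%. Krt14, Esrp1 and Dsg3 had no combined H3K27ac peak assigned in either cartilage. The largest scaled H3K27ac cover was that of Grhl2, at 40.0 kb for MC and 32.2 kb for FL, followed by Epcam at 25.3 and 29.8 kb. Krt5 had 8.33 and 11.3 kb, and Trp63 2.84 and 10.5 kb. Of the combined H3K27ac peaks assigned to Grhl2, 3 of 8 in MC and 2 of 6 in FL had their midpoint inside the gene. For Epcam 0 of 4 in MC and 0 of 2 in FL did, so its cover came from peaks outside the gene. Within 1.0 kb of a gene end, 2 members (Krt5 and Perp) had a combined H3K27ac peak in MC and 3 (Krt5, Grhl2 and Ovol1) in FL, beside 64.9% and 62.3% of all genes.

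The combined lists have 1 value per group and allow no test, so a 2-fold difference on the log2(kb + 0.5) scale was used as a mark of size. In combined ATAC lists of E12.5 over MC, Krt5 (2.84 against 0 kb), Krt14 (0.51 against 0 kb) and Ovol1 (3.13 against 0 kb) were 2-fold higher, or 3 of 10 members beside 15% of all genes. Trp63 (0 against 0.61 kb) and Dsg3 (0 against 1.84 kb) were 2-fold lower, or 2 of 10 beside 12%. In E12.5 over FL the same 3 were 2-fold higher, or 3 of 9 members with a peak beside 17.4%. Trp63 (0 against 1.39 kb) was lower, or 1 of 9 beside 16.3%. Krt14 passed narrowly against both, at a log2 ratio of 1.01 from 1 peak. Its ratio fell to 0.33 with a pseudocount of 2 kb, and it had no combined ATAC peak with equal numbers of peaks. Members 2-fold higher were 2 in each of these settings, against MC and against FL, and 4 with unscaled kb. In MC over FL, Dsg3 (1.84 against 0 kb) was 2-fold higher, or 1 of 7 beside 5.65%, and 0 of 7 were lower, beside 6.76%. For H3K27ac, Trp63 was 2-fold lower in MC than in FL, or 1 of 7 beside 15.9%, and 0 of 7 were 2-fold higher, beside 19.1%.

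A wider set of 55 other epithelial genes in 6 roles was followed beside the members, of which 54 passed the filter on low cover. None was called in any comparison with both E12.5 lists. Against MC 7 of the 54 were higher without overlap, beside 3.93% of all genes, and 4 lower, beside 2340 of 16173 genes. Against FL 14 were higher, beside 9.74%, and 5 lower, beside 16.5%. The median log2 difference was 0.06 against MC and 0.43 against FL. It was 0.67 and 0.90 with E12.5 replicate 1 on its own, and 0.16 and 0.30 with replicate 2 on its own. With replicate 1 on its own, 6 of 54 were called higher than MC, beside 4.31% of all genes, and 4 lower, beside 18.5%. Against FL these were 14, beside 11.2%, and 9, beside 26.7%. With replicate 2 on its own none was called, beside 0% of all genes.

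Over the 6 keratins of this set the median log2 difference was 0.98 against MC and 1.54 against FL, beside -0.24 and -0.25 over all genes. The keratin medians were 1.66 and 2.29 with E12.5 replicate 1 on its own, and 0.34 and 0.82 with replicate 2 on its own. With both lists, 2 keratins were higher than MC without overlap, beside 3.93% of all genes, and 3 higher than FL, beside 9.74%. None was lower, beside 2340 of 16173 genes against MC and 16.5% against FL. Krt15, a basal keratin, had 2.41 and 1.08 kb at E12.5 and was at 0 in all 6 E14.5 lists (log2 difference 2.10 ± 0.37 against each, adjusted p = 0.436 and 0.397, limma). Krt7 had 4.14 and 1.46 kb at E12.5 and 0 to 1.74 kb at E14.5, and Krt18, both keratins of simple epithelia, had the smallest difference of the 6. Of 10 epithelial transcription factors, 2 were higher and 2 lower than MC without overlap, and 2 and 1 against FL, beside the same shares of all genes. Tfap2c, which encodes an AP-2 factor, had 24.6 and 7.68 kb at E12.5 and 3.71 to 7.54 kb at E14.5. Foxn1 had 10.3 and 0.51 kb at E12.5 and 0.49 to 2.22 kb at E14.5. Ehf, an Ets factor of epithelia, had the smallest log2 difference of the 10, with 0 and 0.42 kb at E12.5 against 0.37 to 3.52 kb at E14.5. Its E12.5 lists lay below every MC list and overlapped FL, where replicate 3 had 0.37 kb.

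Of 12 tested genes of adherens and tight junctions, 1 was higher than MC without overlap, beside 3.93% of all genes. Lower than MC were 2, beside 2340 of 16173 genes. Against FL 4 were higher, beside 9.74%, and 1 lower, beside 16.5%. Cldn7, a claudin, had 1.30 and 0.63 kb at E12.5 and at most 0.48 kb at E14.5, and Llgl2, a polarity gene, had 13.4 and 1.90 kb against 0.69 to 3.73 kb. Cgn (cingulin) was lower at E12.5, with 0.83 and 1.52 kb against 1.80 to 2.80 kb. Among 7 desmosomal genes, 1 was higher than MC and 1 higher than FL without overlap, beside the same shares of all genes. Pkp1 had 7.28 and 4.61 kb at E12.5 and 0 to 3.93 kb at E14.5. Pkp3 came next, with 5.92 and 0.85 kb at E12.5 and 0 to 3.73 kb at E14.5, and Dsg2 had the smallest value, with 0.73 and 2.82 kb at E12.5 and 1.75 to 3.40 kb at E14.5.

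Of 8 genes of hemidesmosomes and the basement membrane, none differed from MC without overlap, beside 18.4% of all genes. Against FL 1 was higher, beside 9.74%, and 2 lower, beside 16.5%. Itgb4, the beta chain of the hemidesmosomal integrin, had 11.3 and 3.68 kb at E12.5, 4.93 to 7.65 kb in MC and 1.42 to 2.15 kb in FL. Lad1 had 5.00 and 0.73 kb at E12.5 and 0 to 4.06 kb at E14.5, and Fermt1 0.32 and 5.85 kb against 3.00 to 5.67 kb. Among 11 genes of proteases, surface proteins and RNA regulators, 1 was higher than MC without overlap, beside 3.93% of all genes. Against FL 3 were higher and 1 lower, beside 9.74% and 16.5%. Prss8, a membrane-anchored protease, had 2.55 and 1.03 kb at E12.5 and 0 to 0.99 kb at E14.5, and Rab25 1.76 and 0.88 kb against 0 to 1.34 kb. Cd24a was lowest in E12.5 replicate 1, with 2.66 kb against 9.41 kb in replicate 2 and 7.70 to 12 kb at E14.5.

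The genes whose pattern over the 8 lists was most like the members' mean log2 cover were Plaat5 (Pearson's r = 0.976), Eomes (0.953), Cdk5r2 (0.893), Armh3 (0.888) and Cyp26a1 (0.886), out of 13262 genes with a mean cover of at least 1 kb. The likeness rests on 8 lists that share library and list length, and has no test. In E12.5 replicates 1 and 2 the members' mean log2 cover was 0.82 and 1.30, against 0.67 to 0.96 in MC and 0.34 to 0.83 in FL.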

How the data were processed

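The authors trimmed reads with Trim Galore, aligned them with Bowtie2 to mm10, handled them with SAMtools and called peaks with Genrich (ATAC) or SEACR (CUT&Tag), per the submitters' processing notes, which give no versions. Each deposited ATAC peak list carries positions, a score and a −log10 p, and each deposited H3K27ac list positions and a signal. Scores and signals ranked peaks within a list, and tests used peak length only. Combined lists pool libraries and give no spread.

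Peaks were assigned to 21631 protein-coding genes of RefSeq (GRCm38.p6, autosomes and X). Cover per gene was scaled to the mean total of the 8 ATAC lists and tested as log2(kb + 0.5) in limma 3.58.1 (R 4.3.3), in 1 fit over the 8 ATAC lists without replicate block, on genes with a mean of at least 0.3 kb, with Benjamini-Hochberg adjustment over 16173 genes at 0.05. On simulated data with 100 genes of each size planted among 16173, a log2 difference of 1.5 was recovered for 5% (E12.5 against MC) and 6% (against FL), and one of 3 for 58% and 60%. Python 3.11.15 did the rest.

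The members, the gene lists and the tests were chosen with earlier results of these data known. Named in the text were all members, per role the 2 other genes with the largest and the 1 with the smallest log2 difference of E12.5 against the mean of MC and FL, and the 5 genes most like the members. Alternatives were other pseudocounts (0.1 and 2 kb), no filter, unscaled cover, peak numbers, equal list lengths, a limit of 100 kb, a fit on 2 groups, the replicate block and each list left out. Single-library H3K27ac lists were not compared, since a peak lay within 1.0 kb of a gene end for 12.3% to 15.2% of genes, against 62.3% and 64.9% in the combined lists. Hi-C and 4C samples were not used here.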

Additional observations from a re-analysis of the deposited data

How the results depend on the processing

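The reported setting called no gene, and every call came from another setting. With a pseudocount of 0.1 kb limma called 11 genes for E12.5 against MC, 6 for E12.5 against FL and 20 for MC against FL, and 1 member among the last, Dsg3 (log2 difference 4.43). In MC against FL, a fit on the 2 groups only called 8 genes. Leaving out 1 list at a time gave 0 to 3690 genes for E12.5 against MC, 0 to 6127 against FL and 0 to 8 for MC against FL. The upper bounds of the first and second came without E12.5 replicate 2, that of the third without either E12.5 list. Members called ranged from 0 to 5 in each comparison with E12.5, the 5 again without E12.5 replicate 2. The members' median log2 difference (0.15 against MC and 0.30 against FL) became -0.25 and -0.03 with equal numbers of peaks, -0.06 and 0.90 with the number of peaks in place of their length, and 0.59 and 0.49 unscaled. With 1 list left out it ran from -0.09 to 0.61 and from -0.07 to 0.67, both lowest without E12.5 replicate 2.

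Some members changed sign. For E12.5 against MC, Trp63 (0.00) gave -0.65 with a pseudocount of 0.1 kb, -0.50 with equal numbers of peaks, -0.35 with the number of peaks, and -1.36 to 1.36 with 1 list left out. In the same comparison others were Epcam with the number of peaks (-0.35) and Cdh1 with equal numbers of peaks (from 0.54 to -0.65). For E12.5 against FL they were Epcam with unscaled kb (0.26), Grhl2 with the number of peaks (0.12) and unscaled (0.074), and Esrp1 with equal numbers of peaks (-0.12). For MC against FL, Esrp1 gave -0.16 with equal numbers of peaks, -0.03 with peaks up to 100 kb and -0.008 unscaled. With 1 list left out, values of E12.5 against MC ran from -0.051 to 0.128 for Epcam, -0.14 to 0.66 for Esrp1 and -1.75 to 0.72 for Perp. Those of E12.5 against FL ran from -1.04 to 0.41 for Grhl2 and -0.13 to 0.67 for Esrp1, and those of MC against FL from -0.14 to 0.24 for Esrp1 and -0.18 to 0.30 for Krt14. Krt14 did not pass the filter with equal numbers of peaks and has no value there.

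With equal numbers of peaks, members with a peak at a gene end fell from 7 to 2 in E12.5 replicate 1. The share of all genes in that list fell from 64.9% to 58.1%. Of 47 member regions then left, 9 were called in E12.5 replicate 1 and no E14.5 list (19.15%, beside 15.3% of all regions). Those of E12.5 replicate 2 and no E14.5 list came to 1 (2.13%, beside 6.18%). Those of both E12.5 lists with no E14.5 list came to 0, beside 0.315%. The planned rule of an overlap of at least 1 base in 2 of the shorter feature was met by every peak, since each lies inside its region. A stricter rule, chosen after seeing the data, asked for a peak at least 50% as wide as the region. It left 1 member region in both E12.5 lists with no E14.5 list, beside 0.643% of all regions. It left 0 in every list, beside 2.48%. With 1 list left out, member regions in every list ran from 3 to 5 (5 without FL replicate 1, beside 10.85% of all regions). Those in every MC and no FL list ran from 2 to 4 (4 without FL replicate 2, beside 0.861%). In the combined ATAC lists, members 2-fold lower in E12.5 than in MC were 1 unscaled and 0 with a pseudocount of 2 kb, those lower than in FL 0 with a pseudocount of 2 kb and 2 with equal numbers of peaks, and those higher in MC than in FL 0 with a pseudocount of 2 kb. For H3K27ac, 2 members were 2-fold lower in MC with unscaled kb and with equal numbers of peaks. Unscaled kb moved the median of all genes from -0.24 to 0.14 against MC and from -0.25 to 0.10 against FL. The causes were not tested.

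Whether the same replicate number pairs libraries of different groups was not tested. Between MC and FL, correlations of deviations were 0.04 to 0.05 for the same number and -0.047 to -0.004 for different numbers. Between E12.5 and the others they were -0.23 to -0.04 for the same number. The 2 E12.5 lists mirror each other in deviation, so their correlations with any other list differ only in sign and cannot decide pairing. With the replicate block limma called 0 genes in each comparison, and the members' median was 0.20 for E12.5 against MC and 0.29 against FL. List length stands in for depth, so a gene at 0 has no called peak, which does not show closed chromatin.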
